A study of Homo sapiens with 24 samples.

Results

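Oncofetal genes are expressed in the fetal liver, are silenced in the adult liver and return in liver cancer. Here 7 of them, AFP, GPC3, H19, DLK1, LIN28B, SALL4 and HMGA1, were followed by level and by half-lifetime in HepG2 cells, a human liver cancer line of epithelial shape. They were taken by name from textbook knowledge of liver cancer, with earlier results of these data already known. All 7 had 1 row each among the 58676 gene rows, and 5 of them were counted at 1 CPM (1 read in every 1000000 gene reads of the library) or more in at least 2 libraries, as were 13136 genes in all. H19 and SALL4 stayed below 1 CPM in every library and are described apart.

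One set of cells had received a negative control siRNA (siControl), and the others siRNA against a single IGF2BP transcript, giving the siIGF2BP1, siIGF2BP2 and siIGF2BP3 knockdowns. Transcription was then stopped with actinomycin D, and poly(A) RNA was sequenced at 0, 3 and 6 h of treatment. Each of the 12 groups of siRNA and time had 2 libraries, 24 in all. All 12 groups, siControl included, went through transfection, and the knockdowns were transient in 1 cell line. The labels number the replicates but do not say whether they came from separate transfections, so the p-values measure the spread between these libraries, which may be technical. By the study's methods, transfected cells were divided among the 3 times only afterwards, so the 0, 3 and 6 h libraries of a condition may share a transfection and its 6 libraries may not be independent. Deviations of same-numbered libraries at 0 h and at a later time correlated at -0.02 to 0.08 over all genes tested.

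AFP is a serum carrier of the fetus and a clinical marker of liver cancer. GPC3 is a glypican that carries heparan sulfate on the cell surface, and DLK1 is a membrane protein of the Notch ligand type found on hepatoblasts. LIN28B is an RNA-binding protein that blocks the making of let-7 microRNAs, and LIN28B and HMGA1 are themselves classic let-7 targets. HMGA1 and SALL4 act on chromatin, the first as an architectural protein at AT-rich DNA and the second as a zinc finger repressor that recruits the NuRD complex. H19 is an imprinted long noncoding RNA that neighbours IGF2. The IGF2BP proteins bind the 3′ untranslated regions of many messenger RNAs and modulate their stability and translation. By the study, IGF2BP1 and IGF2BP3 have limited expression in adult organs outside the reproductive tissues, while IGF2BP2 is found in many adult tissues.

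Libraries held 31843248 to 74252042 gene reads and 50889 to 119088 reads of the ERCC spike-in, a set of synthetic RNAs added to each sample. Each siRNA lowered its own target at 0 h, with log2 differences of -2.24 for IGF2BP1, -1.93 for IGF2BP2 and -1.49 for IGF2BP3. All 10 hepatocyte-lineage markers were present in every library, the lowest being TTR at 38.6 CPM. Of 10 markers of fibroblasts, endothelium and blood, 9 peaked at 1.37 CPM or less. The remaining one, LYZ, ranged from 772 to 1915 CPM, and the summed level of the list ranged from 1198 to 1916 CPM in siControl, 899 to 1376 in siIGF2BP1, 774 to 1194 in siIGF2BP2 and 1062 to 1617 in siIGF2BP3. LYZ was lower than in siControl at 0 h in every knockdown, with log2 differences of -0.38, -0.60 and -0.17 for siIGF2BP1, siIGF2BP2 and siIGF2BP3, and its part in the members' changes was not tested. In bulk RNA, fewer cells expressing a gene and less of its RNA per cell cannot be told apart.

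AFP (ENSG00000081051.7, chr4:73431138-73456174 on the plus strand of hg38) was by far the most abundant member. Per kilobase of exon, in siControl cells at 0 h, AFP stood at 3652 ± 37.3 CPM (SD, n = 2) and ranked 9 of 13094 genes. GPC3 (ENSG00000147257.13, chrX:133535745-133987100, minus strand) followed at 487 ± 9.30 CPM per kilobase, rank 51. HMGA1 (ENSG00000137309.19, chr6:34236873-34246231, plus strand) stood at 281 ± 6.46 CPM per kilobase, rank 85. DLK1 (ENSG00000185559.14, chr14:100725705-100738224, plus strand) stood at 31.2 ± 0.396 and LIN28B (ENSG00000187772.7, chr6:104936616-105083332, plus strand) at 22.9 ± 0.506 CPM per kilobase, ranks 1168 and 1637. Each step in this order was wider than the spread of its 2 libraries. SALL4 (ENSG00000101115.12, chr20:51782331-51802521, minus strand) and H19 (ENSG00000130600.18, chr11:1995166-2004552, minus strand, a long noncoding RNA) came last at 0.0426 ± 0.00901 and 0.0532 ± 0.0183 CPM per kilobase, and these 2 did not differ beyond their spread.

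HMGA1 moved furthest among the 5 expressed members, and it moved in opposite directions in the IGF2BP1 and IGF2BP2 knockdowns. At 0 h the siControl libraries held 643.9 and 665.2 CPM of HMGA1, the siIGF2BP1 libraries 557.9 and 548.9, the siIGF2BP2 libraries 731.0 and 701.7, and the siIGF2BP3 libraries 652.3 and 631.6. Both siIGF2BP1 libraries lay below both controls and both siIGF2BP2 libraries above them, while those of siIGF2BP3 overlapped the controls. Such separations, here and for the other members, describe the libraries alone, and the share of all genes that show them is not given. HMGA1 fell by 0.22 ± 0.03 on the log2 scale (SE) in the IGF2BP1 knockdown, a change of -14.3% (edgeR quasi-likelihood test, Benjamini-Hochberg adjusted p = 1.56e-06). It rose by 0.14 ± 0.03 in the IGF2BP2 knockdown, or 10.0% (edgeR, adjusted p = 0.0022), and the IGF2BP3 value was -0.02 ± 0.03 (edgeR, adjusted p = 0.76).

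The separation from siControl was kept at the later times in the IGF2BP1 knockdown. At 3 h HMGA1 stood at 855.8 and 844.1 CPM in siControl against 694.3 and 698.2 in siIGF2BP1, and at 6 h at 953.3 and 890.0 against 740.3 and 724.6. CPM of a long-lived transcript climbs after actinomycin D because other transcripts are lost from the total, so levels are compared only within a time. Averaged over the 3 times, HMGA1 was lower by 0.28 ± 0.02 (log2) in siIGF2BP1, or -17.9% (edgeR, adjusted p = 1.37e-15). With the summed ERCC reads as the scale instead, HMGA1 was still lower in siIGF2BP1 at 0 h, at -0.25 (edgeR, adjusted p = 0.037), while its rise in siIGF2BP2 had the value 0.22 (edgeR, adjusted p = 0.088). That rise was also not called without siControl replicate 1 at 0 h (0.12, adjusted p = 0.070) or without siIGF2BP2 replicate 1 at 0 h (0.11, adjusted p = 0.088, both edgeR). Processed pseudogenes of HMGA1 took up to 235 reads each in all 24 libraries together, against 942108 for HMGA1.

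DLK1 showed the opposite sign to HMGA1 in the IGF2BP1 knockdown. Its level at 0 h was 165.3 and 162.4 CPM in siControl, 188.0 and 183.0 in siIGF2BP1, 155.2 and 154.5 in siIGF2BP2, and 158.8 and 157.7 in siIGF2BP3. Both siIGF2BP1 libraries were above the controls, and the libraries of the other two knockdowns were below them by a few CPM. DLK1 rose by 0.20 ± 0.04 (log2) in siIGF2BP1, or 14.8% (edgeR, adjusted p = 0.00037). The values in siIGF2BP2 and siIGF2BP3 were -0.07 ± 0.04 (edgeR, adjusted p = 0.28) and -0.05 ± 0.04 (edgeR, adjusted p = 0.60). The DLK1 libraries of siIGF2BP1 also stood above both controls at 3 h, with 241.7 and 250.0 against 221.4 and 215.6 CPM, and at 6 h, with 286.5 and 277.6 against 256.8 and 233.3 CPM. On the ERCC scale the rise at 0 h was 0.17 (edgeR, adjusted p = 0.34), and averaged over time it was 0.24 and was called (edgeR, adjusted p = 4.95e-06).

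LIN28B, the inhibitor of let-7 biogenesis, was lower in siIGF2BP1 by a smaller step. The libraries at 0 h held 138.1 and 133.9 CPM in siControl, 123.4 and 126.1 in siIGF2BP1, 137.3 and 136.7 in siIGF2BP2, and 139.4 and 145.7 in siIGF2BP3. Only the siIGF2BP1 libraries lay below both controls. The difference at 0 h was -0.11 ± 0.04 (log2; edgeR, adjusted p = 0.063). Averaged over the 3 times LIN28B fell by 0.08 ± 0.02 (log2), or -5.52%, in siIGF2BP1 (edgeR, adjusted p = 0.0042). On the ERCC scale the averaged value was -0.02 (edgeR, adjusted p = 0.76). An antisense gene, LIN28B-AS1, overlaps its exons on the opposite strand and was counted at 988 reads over all libraries, against 159082 for LIN28B.

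The positions at which LIN28B and HMGA1 carry let-7 sites are shown because both genes belong to the LIN28 and let-7 loop and both were called lower in the IGF2BP1 knockdown when averaged over time. The let-7 family is defined by the seed at bases 2 to 8 of its microRNAs, which pairs with CTACCTC in a target. The mature hsa-let-7a-5p (RefSeq, GRCh38.p14, chr9:94175962-94175983) is printed 5′ to 3′ with its seed in capitals, followed by each site in its transcript strand (GENCODE v44 on hg38) with the site in capitals.
hsa-let-7a-5p: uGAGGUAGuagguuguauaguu
LIN28B site 1, chr6:105078816-105078844: ggttgcaaagtCTACCTCatgcaagtata
LIN28B site 2, chr6:105081243-105081271: gatgatagtaaCTACCTCtgagtttgaca
LIN28B site 3, chr6:105081425-105081453: acagcaaaaggCTACCTCatagttgatac
LIN28B site 4, chr6:105082864-105082892: gatggtgttgaCTACCTCttgaatcacat
HMGA1 site 1, chr6:34245833-34245861: ctgttcacaaaCTACCTCtggacagttgt
Among 19538 annotated 3′ untranslated regions, 9.77% hold CTACCTC at least once on the transcript strand and 1.14% at least 2 times. LIN28B with 4 matches is among 12 genes with that many or more, and IGF2BP1 and HMGA2 also have 4 each. The LIN28B region has 4549 bases, against a median of 1064, and these counts are not corrected for length. SALL4 has 1 match, and AFP, GPC3 and DLK1 have none in the region searched. For H19 only 1 transcript of 1106 bases was searched, of 3462 exon bases of the gene, and it holds none. The letters TGGAC are met in IGF2BP binding sites and contain the core of the N6-methyladenosine consensus. They occur in 57.4% of 3′ untranslated regions, 4 times in that of HMGA1, 3 in DLK1 and 2 each in LIN28B and SALL4. Per kilobase this is 2.97 for HMGA1, 0.901 for DLK1, 0.440 for LIN28B and 1.03 for SALL4, against a median of 0.471. The letters TGGAC occur 4 times in the H19 transcript searched, and not in AFP or GPC3. In HMGA1 one of them follows the let-7 site directly. A match is a description of the letters, and no binding or let-7 level was measured in these libraries.

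AFP changed little. The libraries at 0 h held 11776 and 11607 CPM in siControl, 11699 and 12089 in siIGF2BP1, 12317 and 12680 in siIGF2BP2, and 12140 and 12249 in siIGF2BP3. The siIGF2BP2 and siIGF2BP3 libraries stood above both controls, and those of siIGF2BP1 overlapped them. AFP rose by 0.10 ± 0.03 (log2) in siIGF2BP2, or 7.44% (edgeR, adjusted p = 0.0079), and had values of 0.04 ± 0.03 in siIGF2BP1 and 0.06 ± 0.03 in siIGF2BP3 (edgeR, adjusted p = 0.33 and 0.15). The call in siIGF2BP2 was lost without siControl replicate 2 at 0 h (0.09, edgeR adjusted p = 0.11), without siIGF2BP2 replicate 2 at 0 h (0.08, adjusted p = 0.17) and on the ERCC scale (0.18, adjusted p = 0.15).

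GPC3 held the narrowest range of the 5 at 0 h relative to its level. It stood at 1619 and 1576 CPM in siControl, 1594 and 1597 in siIGF2BP1, 1565 and 1561 in siIGF2BP2, and 1569 and 1544 in siIGF2BP3. The siIGF2BP2 and siIGF2BP3 libraries were below both controls, with fitted changes of -1.65% and -2.29%. None of its differences at 0 h was called, at 0.02, -0.02 and -0.03 (log2; edgeR, adjusted p = 0.74, 0.65 and 0.51 for siIGF2BP1, siIGF2BP2 and siIGF2BP3). The 95% intervals bound the change of GPC3 at 0 h between -0.08 and 0.07 (log2) in every knockdown. All 3 signs at 0 h turn with the ERCC scale, so no direction at 0 h is given for GPC3.

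In counts, 2 of the 5 members were called at 0 h in siIGF2BP1, where 15.9% of all genes tested were called. In siIGF2BP2 the count was again 2 of 5, against 12.1% of all genes, and in siIGF2BP3 it was 0 of 5, against 9.39%. The median log2 difference of the 5 at 0 h was 0.02, 0.02 and -0.02, and that of all genes 0.01, 0.02 and 0.00. With levels averaged over the 3 times, 3, 4 and 3 of the 5 were called against backgrounds of 39.7%, 33.8% and 32.3%. Further calls of the averaged test were small. In siIGF2BP2, AFP and HMGA1 were higher by 0.05 and 0.07 (log2) and GPC3 and DLK1 lower by 0.07 and 0.10 relative to the other transcripts. On the ERCC scale GPC3 and DLK1 turned positive there and were not called (0.07 and 0.04; edgeR, adjusted p = 0.19 and 0.53), and the median of all genes was itself 0.15, so their direction in siIGF2BP2 rests on the scale. In siIGF2BP3, HMGA1, GPC3 and DLK1 were lower by 0.06, 0.05 and 0.07. The calls of all 3 in siIGF2BP3 were lost when scaled by library size alone, and all turned positive on the ERCC scale, on which the median of all genes itself was 0.18. The HMGA1 call in siIGF2BP3 was also lost without siControl replicate 2 at 0 h or replicate 1 at 6 h, or without siIGF2BP3 replicate 2 at any time, with values from -0.05 to -0.04. The DLK1 call was lost without siControl replicate 1 at 6 h (-0.05) or siIGF2BP3 replicate 2 at 3 or 6 h (-0.05 and -0.06), and the AFP call in siIGF2BP2 without siControl replicate 1 at 6 h (0.03).

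**Figure D1:**
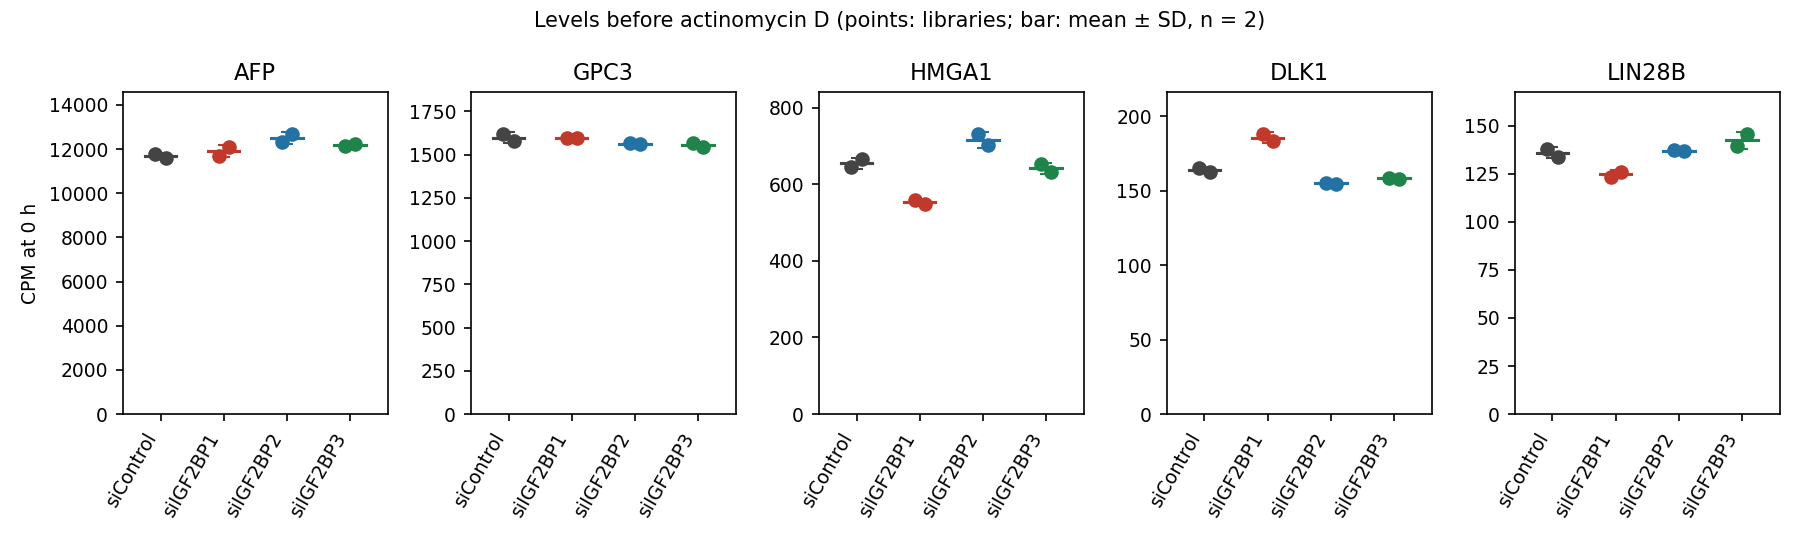
Levels at 0 h in CPM (vertical axis, from 0) of the 5 expressed members in siControl and the 3 knockdowns; points are libraries and bars the mean ± SD of 2. HMGA1 is lowest in siIGF2BP1 at 553 CPM and highest in siIGF2BP2 at 716 CPM, and DLK1 is highest in siIGF2BP1 at 185 CPM.

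**Figure D2:**
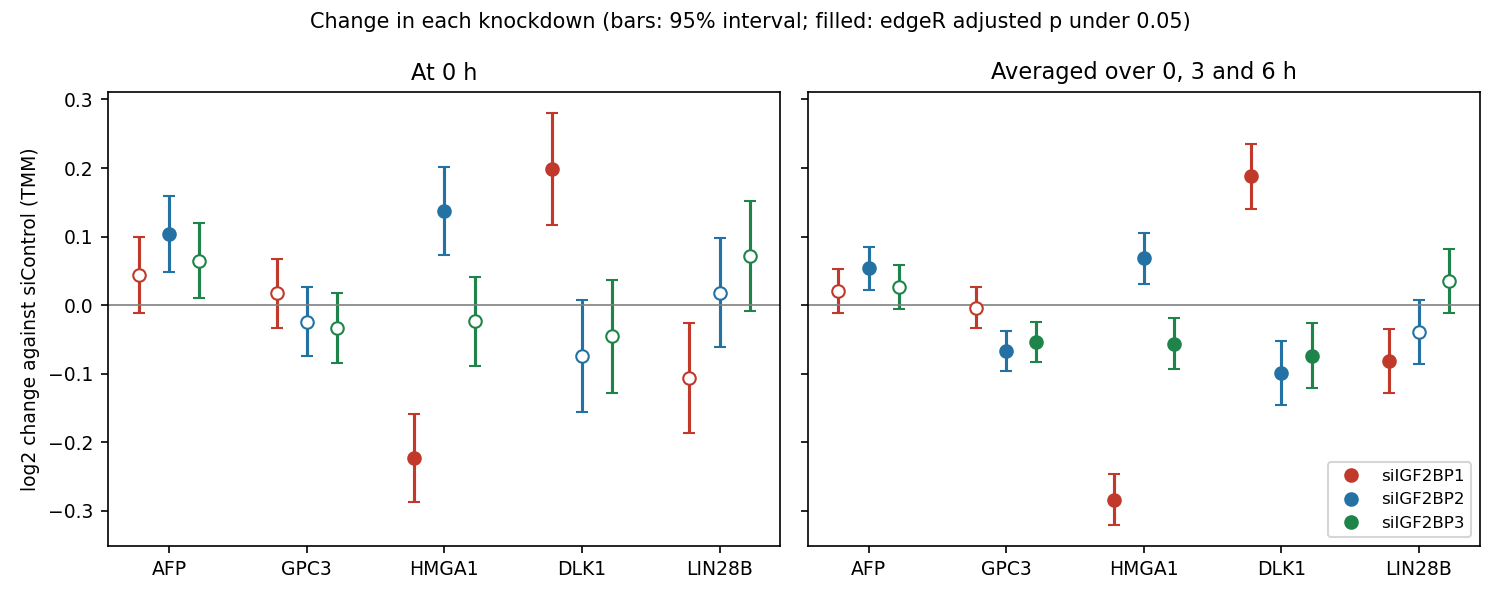
Log2 difference of each knockdown from siControl (vertical axis) for the 5 members, at 0 h and averaged over the 3 times; bars are 95% intervals and filled points had an edgeR adjusted p under 0.05. HMGA1 at -0.22 and DLK1 at 0.20 in siIGF2BP1 stand apart from zero on opposite sides at 0 h.

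A call in one knockdown and none in another is no difference between them, so the 3 pairs of knockdowns were compared directly at 0 h. HMGA1 was higher in siIGF2BP2 than in siIGF2BP1 by 0.36 ± 0.03 (log2), or 28.4% (edgeR, adjusted p = 2.74e-11). DLK1 was lower by 0.27 ± 0.04 (edgeR, adjusted p = 2.66e-06) and LIN28B higher by 0.12 ± 0.04 (edgeR, adjusted p = 0.023) in the same comparison, in which 18.7% of genes were called. Between siIGF2BP3 and siIGF2BP1 the same 3 members were called, HMGA1 at 0.20 ± 0.03, DLK1 at -0.24 ± 0.04 and LIN28B at 0.18 ± 0.04 (edgeR, adjusted p = 1.59e-05, 3.05e-05 and 0.0016; background 14.3%). Between siIGF2BP3 and siIGF2BP2 only HMGA1 was called, at -0.16 ± 0.03 (edgeR, adjusted p = 0.00044; background 9.19%). AFP and GPC3 were not called in any pair at 0 h. On the ERCC scale the DLK1 differences from siIGF2BP1 were -0.16 and -0.13 (edgeR, adjusted p = 0.20 and 0.37), and the HMGA1 difference between siIGF2BP3 and siIGF2BP2 was also not called (adjusted p = 0.48). The LIN28B difference between siIGF2BP2 and siIGF2BP1 was 0.04 with levels averaged over time (edgeR, adjusted p = 0.14). In that averaged test LIN28B was called higher in siIGF2BP3 than in siIGF2BP2 (0.07; edgeR, adjusted p = 0.013). GPC3 was called lower in siIGF2BP2 and in siIGF2BP3 than in siIGF2BP1 (-0.06 and -0.05; edgeR, adjusted p = 0.00047 and 0.0053). On the ERCC scale at 0 h both of these GPC3 differences were positive. Numbers of all genes called in the averaged pairs are in the last section.

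After actinomycin D the members were of 2 kinds. LIN28B was lost in every condition, and AFP, GPC3, DLK1 and HMGA1 kept about their starting amount relative to the ERCC spike-in. By the study's methods the spike-in was added per amount of total RNA, so this scale is relative to total RNA and not to cells. In siControl, LIN28B stood at 79.0% and 84.8% of its 0 h mean at 3 h and at 65.4% and 62.3% at 6 h. The siIGF2BP1 libraries held 74.2% and 75.7% of LIN28B at 6 h, those of siIGF2BP2 65.8% and 75.2%, and those of siIGF2BP3 76.6% and 69.4%. All 6 knockdown libraries at 6 h thus lay above both controls. The median of all genes at 6 h was also higher in the knockdowns of IGF2BP1, IGF2BP2 and IGF2BP3. It was 62.1%, 61.0% and 63.5% there, against 54.1% in siControl. The share of all genes separated in this way is not given here. The 2 siControl libraries at 0 h were themselves apart on this scale, at 108% and 91.8% of their mean, and the total of all genes against ERCC reads showed the same spread with an SD of 9.43%.

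The fitted slope of LIN28B was -0.65 ± 0.09 log2 units over 6 h in siControl. In the knockdowns of IGF2BP1, IGF2BP2 and IGF2BP3 it was -0.42 ± 0.09, -0.50 ± 0.09 and -0.45 ± 0.09 (edgeR, adjusted p = 6.26e-07, 0.00021, 1.6e-05 and 7.47e-05). The loss of LIN28B was near that of other genes. The median slope of all genes was -0.88, -0.69, -0.71 and -0.65 in the same order, and 59.7% to 63.4% of genes lost more than LIN28B. Scaled by TMM, that is relative to the other transcripts, the LIN28B slopes turned positive, between 0.17 and 0.26. A decay slope was called in 80.6%, 71.7%, 73.8% and 70.1% of all genes. In siIGF2BP2 most of the loss of LIN28B came early, -0.42 from 0 to 3 h (edgeR, adjusted p = 1.75e-06) against -0.08 from 3 to 6 h (edgeR, adjusted p = 0.49), while in siControl the 2 steps were -0.29 and -0.36. The early and late steps were called in 62.2% and 65% of all genes in siControl and in 67.5% and 38.2% in siIGF2BP2. The median early and late steps of all genes were -0.44 and -0.42 in siControl and -0.48 and -0.21 in siIGF2BP2. The early weighting in siIGF2BP2 was thus not particular to LIN28B. The early step of LIN28B did not differ from siControl in a test of that difference, at -0.13 with an interval from -0.37 to 0.10 (edgeR, adjusted p = 1.0; 0.0457% of genes called).

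The slope of LIN28B was less steep than in siControl by 0.23 in siIGF2BP1 (95% interval -0.03 to 0.49), 0.14 in siIGF2BP2 (-0.11 to 0.40) and 0.19 in siIGF2BP3 (-0.06 to 0.45). None of these differences was called (edgeR, adjusted p = 0.47, 0.66 and 0.39). The same difference over all genes had medians of 0.19, 0.17 and 0.22, so LIN28B moved by about as much as the median gene. For the 5 members the differences lay between 0.06 and 0.23, and 0 of 5 were called in each knockdown. Over all genes 0.0152%, 0% and 0.0228% were called by edgeR, that is 2, 0 and 3 genes, with 1436, 896 and 2113 genes at an unadjusted p under 0.05, and DESeq2 called 8, 6 and 25. The widest of the LIN28B intervals reached 0.49, so a difference of that size is not excluded.

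The half-lifetime of LIN28B, from the mean of the decay rates to 3 h and to 6 h, was 9.81 h under the control siRNA. It was 15.8 h in siIGF2BP1, 8.90 h after knockdown of IGF2BP2 and 11.5 h after that of IGF2BP3. Its spread over the 8 ways to take 1 library per time was wide, from 7.03 to 16.8 h for siControl and from 13.8 to 18.5 h for siIGF2BP1. For siIGF2BP2 it went from 7.91 to 10.1 h, and for siIGF2BP3 from 8.87 to 16.3 h. The ranges of siControl and of each knockdown overlapped. Taken from the fitted slope, the LIN28B half-lifetime was 9.28 h for siControl against 14.4, 11.9 and 13.2 h for the knockdowns of IGF2BP1, IGF2BP2 and IGF2BP3. The place of siIGF2BP2 below siControl thus turned with the formula, and no direction is given for it. Without siControl replicate 1 at 0 h the siControl value was 14.1 h, and without siIGF2BP3 replicate 2 at 0 h that of siIGF2BP3 was 14.2 h. Of 12179 genes, 11039, 10349, 11011 and 10225 fell and so had a half-lifetime in siControl, siIGF2BP1, siIGF2BP2 and siIGF2BP3. Their medians were 6.22, 6.91, 6.51 and 6.98 h, shorter than the half-lifetime of LIN28B in each condition. Genes that did not fall are left out of these medians.

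AFP, GPC3, DLK1 and HMGA1 have no half-lifetime here, because the decay rate from the mean of both libraries was negative in all 4 conditions. In siControl and siIGF2BP2 that sign depended on the libraries taken. Of the 8 ways to take 1 library per time in siControl, AFP fell in 4, with half-lifetimes of 101 to 111 h, and GPC3, DLK1 and HMGA1 in 2 each, with 79.8 to 263 h. In siIGF2BP2, AFP fell in 2 of 8 and HMGA1 in 3 of 8, and in siIGF2BP1 and siIGF2BP3 none of the 4 fell in any. Without 1 of the libraries, a fall was met once each in siControl for AFP, GPC3 and HMGA1 (105, 223 and 576 h) and once each in siIGF2BP2 for AFP and HMGA1 (14131 and 246 h). At 6 h their libraries held 101% to 120% of the 0 h mean for AFP, 98.3% to 126% for GPC3, 93.8% to 123% for DLK1 and 89.7% to 114% for HMGA1. In siControl their slopes were 0.01, 0.04, 0.03 and -0.05 log2 units over 6 h, in that order of genes, and none was called (edgeR, adjusted p = 0.88, 0.64, 0.75 and 0.60). GPC3 had a rising slope called in each knockdown, 0.21, 0.18 and 0.24 (edgeR, adjusted p = 0.031, 0.047 and 0.013), and DLK1 in siIGF2BP1, 0.23 (edgeR, adjusted p = 0.029). Not called were DLK1 in siIGF2BP2 and siIGF2BP3, 0.19 and 0.21 (edgeR, adjusted p = 0.069 and 0.0503), and AFP in the 3 knockdowns, 0.17, 0.15 and 0.18 (edgeR, adjusted p = 0.059, 0.092 and 0.051). In the same order, leaving out 1 library gained the DLK1 call in 3 and 7 of 24 cases and the AFP call in 2, 2 and 5. Rising slopes were called in 0.251% of genes in siControl and 2.69%, 2.44% and 2.91% in the knockdowns. How far the scale, which is relative to total RNA, sets such rises was not tested. Under the median ratio over ERCC species the calls of GPC3 in siIGF2BP1 and siIGF2BP2 and of DLK1 were lost (0.18, 0.15 and 0.21; edgeR, adjusted p = 0.075, 0.12 and 0.059). In siIGF2BP1 both calls were also lost without either of its 0 h libraries or without its replicate 1 at 6 h (0.18 to 0.23), and in siIGF2BP3 the GPC3 call was lost without its replicate 1 at 0 or 6 h (0.21 and 0.17). In siIGF2BP2 the GPC3 call was lost in 14 of 24 leavings-out, with the value 0.07 without its replicate 2 at 6 h. Between 94.2% and 96.4% of genes lost more than AFP, GPC3 and DLK1, and 88.5% to 92.4% lost more than HMGA1.

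**Figure D3:**
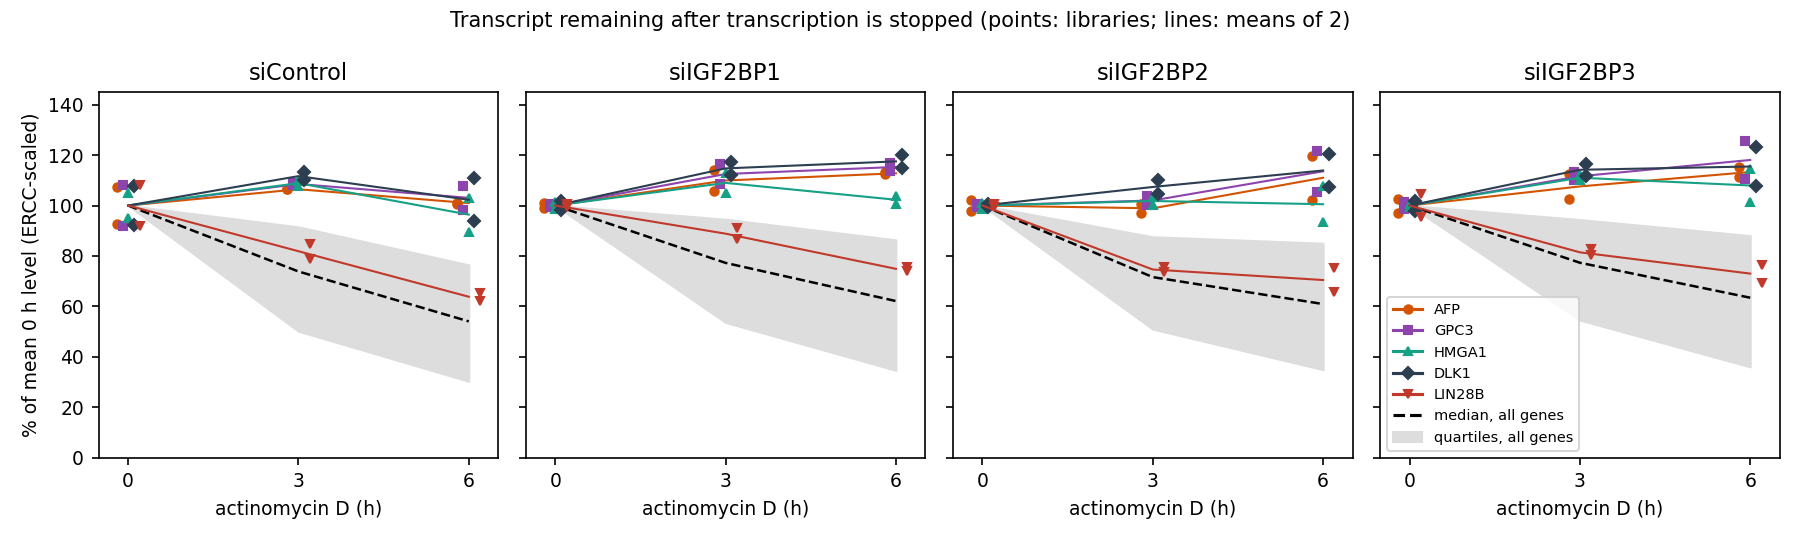
Percent of the 0 h mean (vertical axis, ERCC scale) against hours of actinomycin D for the 5 members in each condition; points are libraries and lines the means of 2. LIN28B is at 63.9% to 74.9% at 6 h while the other 4 stay near or above 100%.

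H19, the imprinted noncoding RNA, was at the edge of detection. Its exons overlap MIR675 on the same strand, counted at 0 reads in all libraries, and 2 small RNA genes on the opposite strand, counted at 0 and 1. How reads over such overlaps were assigned was not given in the sources used here, so the H19 count may be too low, which was not tested. It was counted at 8 and 17 reads in the siControl libraries at 0 h, 5 and 14 at 3 h, and 21 and 12 at 6 h. The siIGF2BP1 libraries held 40 and 13, 23 and 22, and 15 and 27 reads at the same times, and the siIGF2BP2 libraries 26 and 25, 20 and 44, and 20 and 22. Those of siIGF2BP3 held 9 and 7, 18 and 1, and 4 and 7 reads. In CPM, the siControl libraries ranged from 0.123 to 0.349, siIGF2BP1 from 0.349 to 0.661, siIGF2BP2 from 0.335 to 0.660 and siIGF2BP3 from 0.0284 to 0.278. At each of the 3 times both siIGF2BP1 libraries and both siIGF2BP2 libraries were above both controls. Those of siIGF2BP3 overlapped the controls at 0 and 3 h and lay below them at 6 h. The share of all genes separated in this way is not given here.

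With no filter on low counts, 33509 genes were tested, and H19 averaged over the 3 times was higher by 1.16 ± 0.33 (log2) in siIGF2BP1 (edgeR, adjusted p = 0.0047; 7.52% of genes called higher) and by 1.03 ± 0.33 in siIGF2BP2 (edgeR, adjusted p = 0.019; 5.65% called higher). In siIGF2BP3 it was -0.43 ± 0.38 (edgeR, adjusted p = 0.79; 11.2% of genes called). The averaged, unfiltered test was chosen for H19 after its counts were seen. At 0 h alone the values were 1.29 and 1.25 and were not called (edgeR, adjusted p = 0.27 and 0.36; 5.35% and 3.78% of genes called). Directly compared, H19 was lower in siIGF2BP3 than in siIGF2BP1, at -1.59 ± 0.36 (log2), and lower than in siIGF2BP2, at -1.45 ± 0.35 (edgeR, adjusted p = 0.00013 and 0.00078; 13.4% and 10.5% of genes called), while siIGF2BP2 and siIGF2BP1 were not told apart (-0.14, adjusted p = 1.0; 15.7% called). Leaving out each of the 24 libraries in turn, the siIGF2BP1 value ran from 1.02 to 1.41 and stayed called, and the siIGF2BP2 value ran from 0.84 to 1.27 and lost its call in 6 cases, namely without siControl replicate 1 at 0 h or 3 h (0.93 and 0.88), siControl replicate 2 at 6 h (0.94), siIGF2BP2 replicate 2 at 0 h or 3 h (0.98 and 0.84) or siIGF2BP2 replicate 1 at 6 h (0.98). In these refits for H19 and SALL4 the negative binomial dispersion was kept from the fit to all 24 libraries and not estimated anew. With every library under 1 CPM, H19 was far below AFP, GPC3, DLK1, LIN28B and HMGA1 in every condition.

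SALL4 was counted at 12 and 21 reads in siControl at 0 h, 15 and 11 in siIGF2BP1, 16 and 14 in siIGF2BP2 and 12 and 6 in siIGF2BP3. Over all times its CPM ranged from 0.0245 to 0.408 in 24 libraries, and the conditions overlapped. Its averaged differences were not called in any knockdown by edgeR, DESeq2 or any leaving-out of a library, the lowest adjusted p being 0.45. A SALL4 half-lifetime cannot be given at this depth, nor one for H19.

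**Figure D4:**
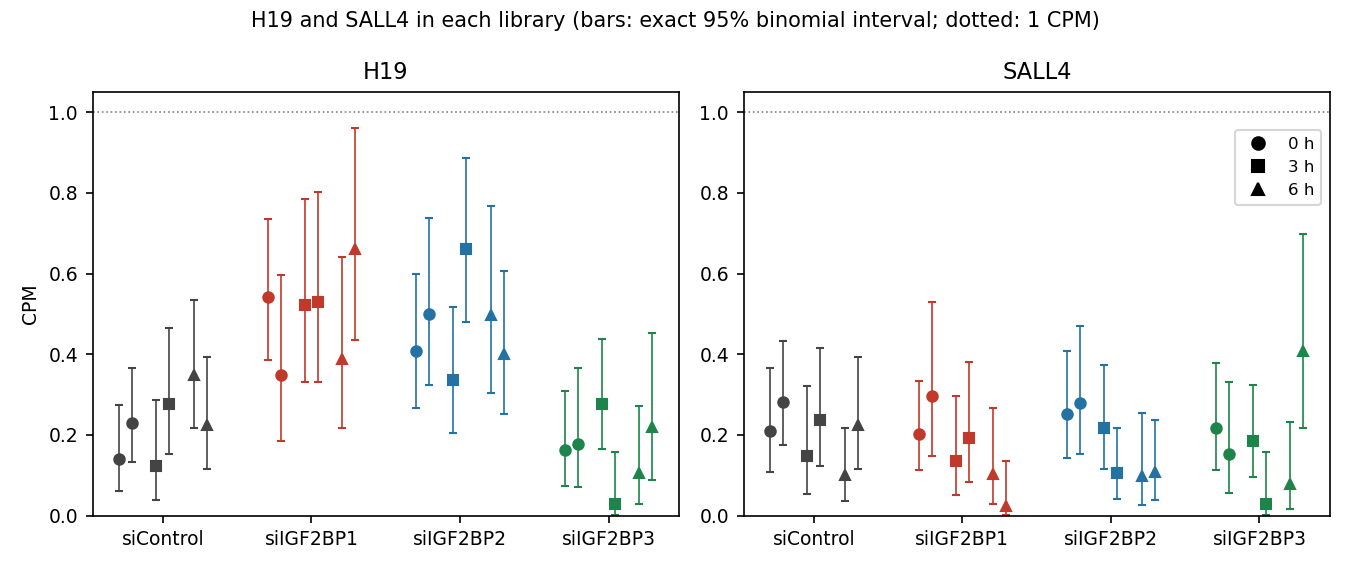
H19 and SALL4 in CPM (vertical axis) in each of the 24 libraries, grouped by condition and ordered by time; bars are exact 95% binomial intervals, which cover counting error only, and the dotted line is 1 CPM. The H19 libraries of siIGF2BP1 and siIGF2BP2 lie between 0.335 and 0.661 CPM and those of siControl between 0.123 and 0.349 CPM.

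Around the members, lists of related genes, taken by name in the same way, were read at 0 h, where 9.43% of all genes were called higher and 6.5% lower in siIGF2BP1, 6.65% and 5.47% in siIGF2BP2, and 4.93% and 4.47% in siIGF2BP3. Of 13 other oncofetal and hepatoblast genes tested, 3 rose and 4 fell in siIGF2BP1, 3 rose and 2 fell in siIGF2BP2, and 3 rose and 2 fell in siIGF2BP3, with medians of -0.15, -0.04 and -0.09. PEG10, an imprinted gene derived from a retrotransposon, rose by 0.56 ± 0.02 in siIGF2BP2 and 0.42 ± 0.02 in siIGF2BP3 and had the value 0.05 in siIGF2BP1 (edgeR, adjusted p = 2.09e-20, 2.49e-16 and 0.14). IGF2, the fetal growth factor beside H19, rose in all 3, by 0.46, 0.12 and 0.15 (edgeR, adjusted p = 1.72e-11, 0.034 and 0.0087). KRT19, a keratin of hepatic progenitors, fell by 0.15 in siIGF2BP1 and by 0.47 in siIGF2BP3 (edgeR, adjusted p = 0.019 and 1.12e-09). SOX4 was called lower in siIGF2BP3 alone, at -0.55 (edgeR, adjusted p = 0.022), and its direct differences were not tested here. Over 11 imprinted genes tested, 2 rose in siIGF2BP1, 2 in siIGF2BP2 and 3 in siIGF2BP3, where IGF2R, the receptor that clears IGF2, fell by 0.20 (edgeR, adjusted p = 2.46e-06).

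Of 15 genes of the LIN28 and let-7 axis tested, 2 rose and 2 fell in siIGF2BP1, 3 rose and 1 fell in siIGF2BP2, and 2 rose and 2 fell in siIGF2BP3. HMGA2, the close relative of HMGA1 and a let-7 target with 4 sites, fell by 0.33 ± 0.04 in siIGF2BP1 and by 0.16 ± 0.04 in siIGF2BP2 (edgeR, adjusted p = 3.76e-08 and 0.0027), and was at -0.09 in siIGF2BP3 (edgeR, adjusted p = 0.15). HMGA2 was thus lower in siIGF2BP2, in which HMGA1 was higher. NRAS, another let-7 target, fell by 0.21 in siIGF2BP1 and rose by 0.16 in siIGF2BP2 (edgeR, adjusted p = 0.00063 and 0.015). KHSRP, which promotes let-7 maturation, rose in all 3 knockdowns by 0.25, 0.21 and 0.28 (edgeR, adjusted p = 3.03e-06, 6.25e-05 and 1.21e-06). TUT7, the terminal uridylyltransferase that acts with LIN28 on let-7 precursors, rose by 0.18 in siIGF2BP2 (edgeR, adjusted p = 0.028).

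Of 12 regulators of AFP transcription, 3 rose and 1 fell in siIGF2BP1, 2 rose in siIGF2BP2 and 0 were called in siIGF2BP3. ZBTB20, a repressor of AFP after birth, rose by 0.70 ± 0.15 in siIGF2BP1 from 7.62 to 12.2 CPM (edgeR, adjusted p = 0.00057), where AFP was at 0.04. CEBPA, a hepatocyte transcription factor, rose by 0.32 in siIGF2BP1 (edgeR, adjusted p = 0.00019). ZFHX3, another AFP repressor, and the activator FOXA1 each rose by 0.30 in siIGF2BP2 (edgeR, adjusted p = 4.28e-05 and 3.18e-05). Of the 10 hepatocyte-lineage markers 4 rose and 2 fell in siIGF2BP1, 1 rose and 3 fell in siIGF2BP2, and 2 rose and 2 fell in siIGF2BP3. AHSG, a fetal liver secretory protein, fell by 0.13, 0.36 and 0.27 and FGB, a fibrinogen chain, rose by 0.17, 0.26 and 0.28 in the 3 knockdowns (edgeR, largest adjusted p = 0.0031 and 9.94e-05).

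Of 13 partners of GPC3 and DLK1 tested, 5 rose and 2 fell in siIGF2BP1, 6 rose and 1 fell in siIGF2BP2, and 0 rose and 2 fell in siIGF2BP3. SULF2, which trims sulfate from heparan sulfate, rose by 0.32 and 0.38 in the first and the second of these (edgeR, adjusted p = 0.00079 and 7.59e-05) and was at -0.02 in siIGF2BP3. FURIN, the protease that cleaves the GPC3 precursor, rose by 0.27 and 0.23 (edgeR, adjusted p = 0.00029 and 0.0029) and was at -0.12 in siIGF2BP3. EXT1, a heparan sulfate polymerase, fell by 0.29 in siIGF2BP2 (edgeR, adjusted p = 0.018). NOTUM, which releases glypicans and inactivates Wnt, fell by 0.14 in siIGF2BP1 and by 0.22 in siIGF2BP3 (edgeR, adjusted p = 0.010 and 0.00015).

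Of 14 NuRD complex genes and other SALL4 partners, 3 rose and 1 fell in siIGF2BP1, 2 rose and 1 fell in siIGF2BP2, and 0 were called in siIGF2BP3. CHD3, a remodelling subunit, rose by 0.27 and 0.56 in siIGF2BP1 and siIGF2BP2 (edgeR, adjusted p = 0.047 and 2.06e-05), and GATAD2B, a scaffold subunit, fell by 0.58 in siIGF2BP2 (edgeR, adjusted p = 0.0029). Of 8 paralogs of the members tested, 2 rose and 1 fell in siIGF2BP1, 1 rose and 1 fell in siIGF2BP2, and 2 rose in siIGF2BP3. ALB, the adult counterpart of AFP in its gene cluster, rose by 0.16 in siIGF2BP1 and by 0.09 in siIGF2BP3 (edgeR, adjusted p = 1.42e-05 and 0.012). GPC6 rose by 0.30 in siIGF2BP2 (edgeR, adjusted p = 4.28e-05), where GPC3 was at -0.02. SALL1 rose by 0.15 and 0.24 in siIGF2BP1 and siIGF2BP3 (edgeR, adjusted p = 0.039 and 0.0013). Of 8 short-lived transcripts, most of them immediate-early genes, 2 rose in siIGF2BP1 and 3 fell in siIGF2BP3. JUN rose by 0.30 in siIGF2BP1 and fell by 0.36 in siIGF2BP3, and KLF6 rose by 0.25 and fell by 0.33 (edgeR, largest adjusted p = 0.0034). No gene of any list was called for a difference in decay slope.

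Over the 12 group means, the genes whose log2 CPM, scaled by TMM, followed each member most closely among 9745 genes were PABPC1 and EIF3K for AFP (Pearson r = 0.999 and 0.998), DDOST and PKM for GPC3 (0.999 for both), CDK16 and LRP1 for DLK1 (0.998 and 0.997), UBE2E3 and NADSYN1 for HMGA1 (0.997 and 0.996) and RBBP4 and LANCL1 for LIN28B (0.977 and 0.976). The points share the time course. On this scale, which is relative to the other transcripts, all 5 members climb after actinomycin D, LIN28B included, although its mean unscaled CPM was lower at 6 h than at 0 h in every condition. The correlations are given as a description over 12 groups.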

How the data were processed

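The deposited counts, whole reads per gene of 24 poly(A) RNA libraries, were made by the authors with Trimmomatic 0.39, HISAT2 2.1.0 on hg38 and HTSeq on GENCODE v29, with ERCC spike-ins counted alongside. Overlap and multi-mapping settings were not given in the sources used here. The 5 HTSeq summary rows, 13.6% to 17.1% of all rows' reads, and 45 pseudoautosomal duplicates were left out. METTL1 knockdown libraries are not analysed here.

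Genes that reached 1 CPM in 2 or more libraries were tested with edgeR 4.0.16 (R 4.3.3, quasi-likelihood, TMM, 12 group means, 12 residual degrees of freedom), two-sided, with Benjamini-Hochberg adjustment over all genes at 0.05. Decay was fitted as a log-linear slope per condition with the summed ERCC reads as the scale (16 residual degrees of freedom). The half-lifetime is ln(2)/K, where K is the mean of the decay rates to 3 and to 6 h. Genes were located with GENCODE v44, to which 58207 of the gene identifiers matched.

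Alternatives were library size, ERCC and DESeq2 1.42.0 scaling, filters, a replicate block and leaving out each library. Fits were tested on simulated counts. The text names all members, the siRNA targets, up to 4 called genes of each list with the largest change, and the 2 genes most like each member. The members and lists were chosen with earlier results of these data known. Replicates of a group correlated at 0.997 to 0.998. A count of under 20 reads sets wide intervals for H19 and SALL4, which cover counting error only.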

Additional observations from a re-analysis of the deposited data

How the results depend on the processing

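With the ERCC total as the scale, 649, 732 and 471 genes were called at 0 h in the knockdowns of IGF2BP1, IGF2BP2 and IGF2BP3, and 1 and 0 members in the first and second of these. In siIGF2BP3, 1 member was called with no filter and 1 with a replicate block. Averaged over time, the ERCC scale called 2 members in siIGF2BP2 and 7203 genes in siIGF2BP3 (6946 higher and 257 lower, against 2131 and 2108 with TMM), and library size alone called 1 member in siIGF2BP3. At 0 h the ERCC scale split the calls into 253 higher and 396 lower, 563 and 169, and 388 and 83 in the 3 knockdowns, against 1239 and 854, 874 and 719, and 647 and 587 with TMM. In the direct comparisons at 0 h the ERCC scale gave 1585, 875 and 382 genes, and 0 members between siIGF2BP3 and siIGF2BP2. Levels averaged over time, an alternative chosen after seeing the data as were those for H19 and SALL4, gave 5654, 4978 and 3992 genes and 2 members in that last pair.

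Counts of slope differences were small and unstable. In siIGF2BP1 they were 1 with TMM, 5 with library size, 1 with the median ratio over ERCC species, 86 for the change from 0 h to 6 h, 9 with no filter, 1 with a replicate block, 0 with only the 2 conditions compared and 8 with DESeq2. In siIGF2BP2 they were 2, 5, 72, 22, 2 and 6 with TMM, library size, the change from 0 h to 6 h, no filter, the replicate block and DESeq2. In siIGF2BP3 they were 0 with the median ratio, 195 for the change from 0 h to 6 h, 12 with no filter, 0 with 2 conditions and 25 with DESeq2. No member was called under any of these.

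The direction turned for the log2 values that follow, and the cause was not tested beyond the scale itself. At 0 h, GPC3 in siIGF2BP1 was -0.0020 with library size, and with ERCC GPC3 was -0.017, 0.054 and 0.046 in the 3 knockdowns, DLK1 0.0045 in siIGF2BP2 and 0.035 in siIGF2BP3, and HMGA1 0.058 in siIGF2BP3. Averaged with ERCC, GPC3 was 0.054, 0.071 and 0.12, DLK1 0.037 in siIGF2BP2 and 0.10 in siIGF2BP3, LIN28B 0.098 in siIGF2BP2 and HMGA1 0.12 in siIGF2BP3, and GPC3 in siIGF2BP1 was 0.0039 with DESeq2. In direct comparisons GPC3 was 0.071 and 0.063 with ERCC against siIGF2BP1, and between siIGF2BP3 and siIGF2BP2 it was 0.0028 with no filter, 0.00057 with DESeq2 and 0.013 averaged over time. The slope of AFP in siControl was -0.0075 and that of HMGA1 in siIGF2BP2 -0.024 with the median ratio. With TMM, which removes the shared loss, the LIN28B slopes were 0.22, 0.26, 0.17 and 0.19 and that of HMGA1 in siControl 0.81, or 0.49 with library size. Slope differences in the 3 knockdowns were for AFP -0.039, -0.064 and -0.062 with TMM and -0.021, -0.019 and -0.033 with library size, for GPC3 -0.035, -0.057 and -0.032, and -0.017, -0.013 and -0.0036, and for HMGA1 -0.11, -0.13 and -0.061, and -0.089, -0.090 and -0.033. In siIGF2BP2 and siIGF2BP3 they were for LIN28B -0.057 and -0.034 with TMM and -0.013 and -0.0059 with library size, and for DLK1 -0.039 and -0.051 with TMM and, in siIGF2BP3, -0.023 with library size.

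Leaving out each library, 1265 to 2250, 846 to 1703 and 586 to 1353 genes were called at 0 h, with 1 to 2 members in siIGF2BP2, and averaged over time 1 to 4 members in siIGF2BP3. Slope differences were called for 0 to 12, 0 to 1 and 0 to 540 genes. Ranges that crossed zero were, for levels, AFP averaged in siIGF2BP1 (-0.00080 to 0.042), GPC3 in siIGF2BP1 (-0.0060 to 0.040 at 0 h, -0.011 to 0.0042 averaged) and LIN28B in siIGF2BP2 (-0.0082 to 0.044 at 0 h). For slopes they were AFP (-0.098 to 0.083), GPC3 (-0.080 to 0.13), DLK1 (-0.099 to 0.17) and HMGA1 (-0.16 to 0.074) in siControl, HMGA1 in siIGF2BP1 (-0.015 to 0.084) and siIGF2BP2 (-0.078 to 0.10), and the HMGA1 slope differences (-0.041 to 0.19 and -0.066 to 0.17). For H19 the difference between siIGF2BP2 and siIGF2BP1 ran from -0.33 to 0.0080, and for SALL4 the ranges were -0.86 to 0.058 in siIGF2BP3, and -0.33 to 0.75 and -0.57 to 0.35 for siIGF2BP3 against siIGF2BP1 and siIGF2BP2. The half-lifetime of LIN28B in siIGF2BP2 was 11.9 h from 6 h alone and 11.9 h from the fitted slope.

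Deviations of same-numbered libraries of a knockdown and siControl correlated at -0.02 to 0.05 over all genes tested. Those of 0 h and a later time in a condition correlated at -0.02 to 0.08. With 2 libraries per group, these values cannot exclude a shared transfection. The replicate block gave the counts above and changed 2 member calls at 0 h, AFP in siIGF2BP3 (0.06, edgeR adjusted p = 0.048) and AFP between siIGF2BP2 and siIGF2BP1 (0.06, adjusted p = 0.045).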
